A study of Mus musculus with 12 samples.

Results

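The guanylate-binding proteins are a family of large GTPases, and this is an account of their genes in the wounded skin of diabetic mice 3 days after injury. The members were taken by gene symbol, Gbp2 through Gbp10, a rule that holds no measured value, although the family was picked with earlier results of these data known. Of the 9 symbols, 8 had a row among the 29956 named genes of the deposited table, and all 8 were among the 18218 genes that passed the low-count filter. Gbp10, and the relative Gbp2b (older symbol Gbp1), had no row and are not analysed here.

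Guanylate-binding proteins are induced in many cell types by interferon-gamma, a cytokine made mainly by T cells and natural killer cells, which acts through the kinases JAK1 and JAK2 and the transcription factor IRF1. In mouse and human cells infected with bacteria, the proteins gather on pathogen-containing vacuoles or on cytosolic bacteria, expose bacterial products to the cytosol and promote inflammasome activation. In the mouse the genes lie in 2 clusters, with Gbp5, Gbp7, Gbp3, Gbp2b and Gbp2 on chromosome 3 and Gbp8, Gbp9, Gbp4, Gbp10 and Gbp6 on chromosome 5, in that order in the RefSeq annotation.

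Full-thickness wounds on the back were treated with Alcaligenes faecalis (A. faecalis, a Gram-negative bacterium found in chronic wounds), with Staphylococcus aureus (S. aureus, a Gram-positive skin pathogen) or with vehicle, which was PBS with 10% glycerol, and total RNA was sequenced from 4 mice per group. All 12 mice carried the genotype B6.BKS(D)-Leprdb/db, in which loss of the leptin receptor leads to obesity and diabetes. Age and sex are not given in the sources used here, and no non-diabetic or unwounded skin was part of the comparison. The bacteria were applied in PBS, and the labels do not say whether their suspensions also held glycerol. The protocol cannot separate skin layers or cell types, so in these bulk samples fewer cells of a type and less RNA per cell cannot be told apart.

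Estimated counts summed to 38.4 to 71.3 M (mega) per library, and levels are given as CPM, the counts per M counts of the library after TMM scaling in edgeR. Fibroblast markers summed to 18071 to 30231 CPM and basal keratinocyte markers to 1485 to 2950 CPM over the 12 libraries, so both lineages of skin were present. Vehicle replicate 3 stood apart with 8787 CPM of adipocyte markers, against 2137 to 2817 CPM in the other vehicle libraries, and the lowest sum of neutrophil markers of all 12 libraries, 770 CPM. Differences were tested with edgeR's quasi-likelihood test in one fit of the 3 groups, and "called" means a Benjamini-Hochberg adjusted p under 0.05 over all 18218 genes. The 3 comparisons share libraries, so their values are set side by side and are not independent of each other.

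With CPM divided by the length of the longest annotated coding transcript of each gene, Gbp2 was the most abundant member in each group. Its level was 28.03 ± 4.99 CPM per kb in A. faecalis wounds, 90.0 ± 38.7 CPM per kb in S. aureus wounds and 29.3 ± 7.40 CPM per kb in vehicle wounds (SD, n = 4 each). Gbp3 and Gbp7 followed at 14.5 and 14.9 CPM per kb in A. faecalis wounds, 27.8 and 23.6 CPM per kb in S. aureus wounds, and 16.9 and 13.8 CPM per kb in vehicle wounds, and in each group the ranges of these neighbours in the order overlapped. Gbp9 was next, with 6.57, 13.0 and 7.26 CPM per kb in A. faecalis, S. aureus and vehicle wounds. Gbp5 and Gbp6 lay below it, again overlapping each other in each group, at 3.56 and 2.85 CPM per kb in A. faecalis wounds, 10.2 and 9.13 CPM per kb in S. aureus wounds, and 3.59 and 3.89 CPM per kb in vehicle wounds. Gbp4 and Gbp8 were the least abundant, with means at or under 2.06 CPM per kb in each group. The order depends on the lengths used, 2.516 kb for Gbp2 and 5.614 kb for Gbp7. In CPM alone, Gbp7 averaged more than Gbp2 in A. faecalis wounds (83.6 against 70.5) and vehicle wounds (77.2 against 73.8). In S. aureus wounds it averaged less (133 against 227). Summed over the 8 members, the family made up 244 ± 32.5 CPM in A. faecalis wounds, 558 ± 216 CPM in S. aureus wounds and 256 ± 68.7 CPM in vehicle wounds (SD, n = 4 each).

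In S. aureus wounds Gbp2 and Gbp5 rose about 3-fold over vehicle, and the other 6 members had positive log2 fold changes that did not pass the test. The 2 called members stand against 6.84% of all genes called in that comparison and 3.87% called higher. Over the 8 members the median log2 fold change was 1.04, against -0.04 over all genes tested. The comparison asks how a wound given S. aureus differs from a wound given PBS with 10% glycerol, and any effect of the glycerol is part of the contrast.

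Gbp2, which coats pathogen vacuoles and in mouse macrophages takes part in activation of the AIM2 inflammasome, was measured at 303, 169, 315 and 119 CPM in the 4 S. aureus wounds, against 72.9, 74.8, 96.5 and 51.0 CPM in the 4 vehicle wounds. Each S. aureus library was above each vehicle library, with replicates 1 and 3 far above replicates 2 and 4. The log2 fold change was 1.62 (SE 0.298, edgeR adjusted p = 0.014). Gbp2 was the 1 member of 8 whose groups did not overlap, against 7.56% of all genes that were higher in this way.

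Gbp5, which in mouse macrophages promotes assembly of the NLRP3 inflammasome, was measured at 44.5, 21.6, 43.7 and 15.1 CPM in S. aureus wounds, against 11.05, 10.2, 15.7 and 6.85 CPM in vehicle wounds. Replicates 1 to 3 of the S. aureus group were above all vehicle libraries, and replicate 4 was just under vehicle replicate 3. The log2 fold change was 1.51 (SE 0.358, edgeR adjusted p = 0.0323). This call was lost without vehicle replicate 1 (0.0606), vehicle replicate 2 (0.054), S. aureus replicate 1 (0.0538) or S. aureus replicate 3 (0.0988), these being adjusted p-values.

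Gbp3, a chromosome 3 neighbour, was measured at 86.6, 57.5, 99.5 and 54.5 CPM in S. aureus wounds, against 46.8, 42.4, 63.7 and 28.5 CPM in vehicle wounds. Gbp7, linked in mouse macrophages to assembly of the phagocyte oxidase, was measured at 174, 105, 169 and 83.1 CPM in S. aureus wounds, against 82.3, 77.3, 89.1 and 60.1 CPM in vehicle wounds. For both genes S. aureus replicates 1 and 3 were above all vehicle libraries, while replicate 4 lay within the vehicle range. Their log2 fold changes were 0.72 (SE 0.238, edgeR adjusted p = 0.0834) and 0.78 (SE 0.219, edgeR adjusted p = 0.0538).

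On chromosome 5, Gbp9 was measured at 72.2, 43.1, 75.1 and 38.2 CPM in S. aureus wounds, against 32.7, 29.0, 46.6 and 19.0 CPM in vehicle wounds, a log2 fold change of 0.84 (SE 0.269, edgeR adjusted p = 0.0751). Gbp6 was measured at 51.4, 17.1, 20.4 and 6.24 CPM in S. aureus wounds, against 10.8, 11.9, 14.6 and 3.23 CPM in vehicle wounds, a log2 fold change of 1.23 (SE 0.572, edgeR adjusted p = 0.192). In each of these 2 genes the S. aureus libraries ran from within the vehicle range to well above it, and S. aureus replicate 1 alone set the top of Gbp6. Gbp8 was measured at 3.52, 2.66, 3.22 and 0.75 CPM in S. aureus wounds, against 0.28, 0.95, 1.11 and 0.27 CPM in vehicle wounds, the largest member log2 fold change at 1.95 (SE 0.576, edgeR adjusted p = 0.0624). Gbp4, which in mouse cells has been linked to restraint of IRF7, was measured at 19.5, 6.08, 3.69 and 8.05 CPM in S. aureus wounds, against 11.9, 5.59, 8.69 and 0.00 CPM in vehicle wounds. Its groups overlapped throughout, and its log2 fold change of 0.51 (SE 0.898, edgeR adjusted p = 0.761) rested on a vehicle library with a rounded count of 0. Without S. aureus replicate 1 that difference was -0.11.

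**Figure D1:**
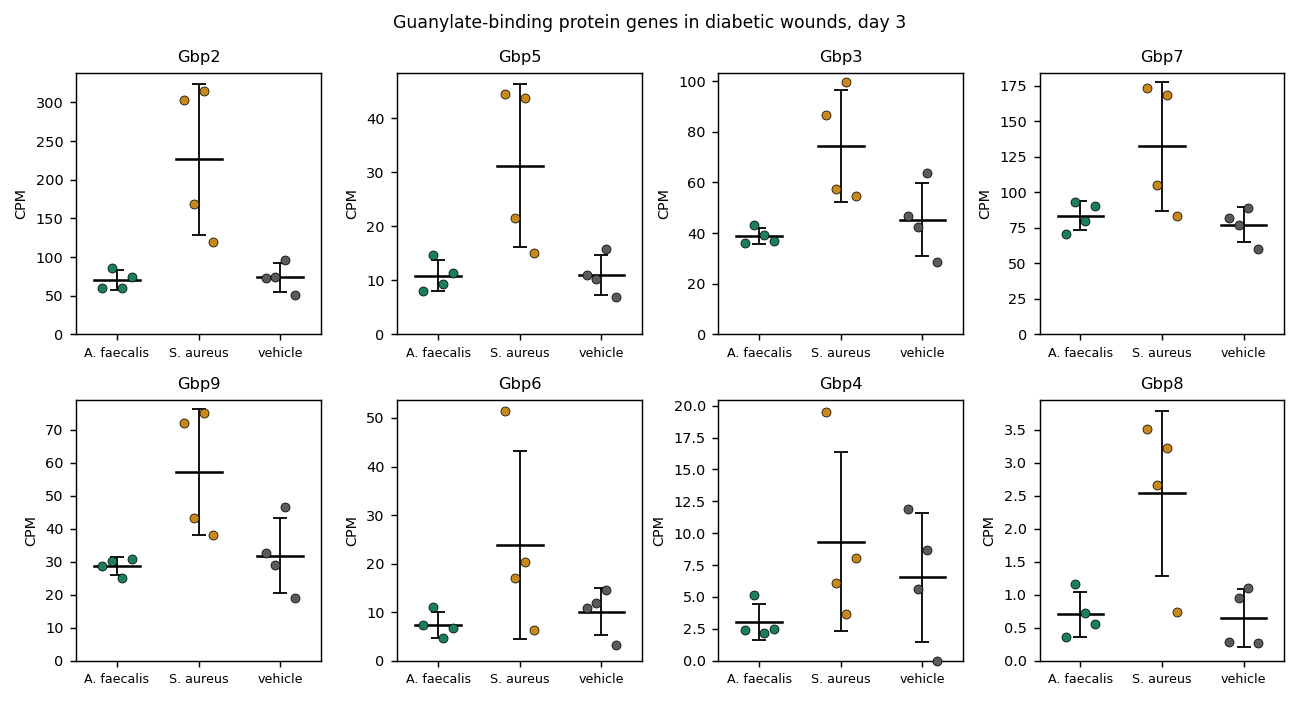
CPM of each member in every library, with A. faecalis, S. aureus and vehicle wounds from left to right in each panel, the thick line at the mean and the bar at 1 SD (n = 4 each). Gbp2 in the 4 S. aureus wounds sits between 119 and 315 CPM, above all vehicle wounds and all A. faecalis wounds, which reach 96.5 and 86.4 CPM.

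How many members were called depended on the test. With the 2 groups fitted alone 0 members were called, against 1.97% of all genes (Gbp2 adjusted p = 0.0518), while DESeq2's Wald test called 6, against 15.8% of all genes. At an adjusted p under 0.1 edgeR called 6, against 15.7% of all genes, and with the replicate number as a block 4, against 5.7%. Gbp2 was called in each of the 12 fits that left out 1 library. Those fits called 1 member without vehicle replicate 1 or 2 or S. aureus replicate 1 or 3, and 4 without vehicle replicate 3. Over all genes they called 672 of 18391, 1153 of 18424, 1240 of 18400 and 260 of 18412, and 973 of 18385, in that order.

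In A. faecalis wounds, by contrast with their vehicle, no member was called. The member log2 fold changes ran between -1.09 and 0.12, edgeR adjusted p-values between 0.774 and 0.996, and no member had an unadjusted p under 0.05, which 1399 genes had. Only 0.011% of all genes were called in that comparison by edgeR and 0.659% by DESeq2, whose calls also held no member. None of the members had groups that did not overlap, against 4.05% of all genes.

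Gbp2 was measured at 60.3, 86.4, 60.6 and 74.8 CPM in A. faecalis wounds, against the 51.0 to 96.5 CPM of vehicle wounds, so the A. faecalis libraries lay wholly inside the vehicle range. The log2 fold change was -0.07 with an SE of 0.291. Gbp5 was measured at 8.11, 14.7, 9.33 and 11.4 CPM in A. faecalis wounds, also inside the vehicle range of 6.85 to 15.7 CPM, with a log2 fold change of -0.01 and an SE of 0.353. SEs of this size leave differences of either sign unresolved, and not only small ones. In the same comparison the SEs of Gbp4, Gbp6 and Gbp8 were larger, at 0.916, 0.569 and 0.579.

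Gbp3 was measured at 36.3, 43.3, 39.3 and 36.8 CPM and Gbp9 at 28.7, 30.4, 25.1 and 31 CPM in A. faecalis wounds, against 28.5 to 63.7 and 19.0 to 46.6 CPM in vehicle wounds. In both genes the 4 A. faecalis wounds were close together and inside the wider spread of the vehicle wounds. Gbp7 was measured at 71.0, 93.3, 80.0 and 90.3 CPM in A. faecalis wounds, against 60.1 to 89.1 CPM in vehicle wounds. The largest negative value belonged to Gbp4, with 2.41, 5.19, 2.21 and 2.47 CPM in A. faecalis wounds, a log2 fold change of -1.09 (SE 0.916, edgeR adjusted p = 0.774), and that value was 0.90 with limma-voom. Gbp6 was measured at 7.29, 11.04, 4.73 and 6.67 CPM and Gbp8 at 0.37, 1.16, 0.73 and 0.56 CPM in A. faecalis wounds, both overlapping vehicle wounds, which ran between 3.23 and 14.6 CPM for Gbp6 and between 0.27 and 1.11 CPM for Gbp8.

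Set directly against S. aureus wounds, A. faecalis wounds were lower in Gbp2, Gbp3, Gbp5 and Gbp9, and all 8 members had negative log2 fold changes. The 4 called members stand against 12.7% of all genes called in that comparison and 7.62% called lower. In these same 4 genes each A. faecalis library was below each S. aureus library, against 11.8% of all genes that were lower in this way. The median log2 fold change over the 8 members was -1.56, against 0.02 over all genes tested.

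Gbp2 averaged 70.5 ± 12.6 CPM in A. faecalis wounds and 227 ± 97.4 CPM in S. aureus wounds (SD, n = 4 each), a log2 fold change of -1.68 (SE 0.298, edgeR adjusted p = 0.005). Gbp5 averaged 10.9 ± 2.87 CPM in A. faecalis wounds and 31.2 ± 15.1 CPM in S. aureus wounds, a log2 fold change of -1.52 (SE 0.358, edgeR adjusted p = 0.0181). The SD between mice was several times wider in the S. aureus group for both genes. Relative to the mean the gap was smaller, with an SD of 43.0% against 17.8% for Gbp2 and 48.3% against 26.4% for Gbp5. Gbp3 differed by a log2 fold change of -0.94 (SE 0.239, edgeR adjusted p = 0.0256) and Gbp9 by -0.99 (SE 0.2703, edgeR adjusted p = 0.0338).

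Gbp4, Gbp6, Gbp7 and Gbp8 had log2 fold changes of -1.60, -1.67, -0.66 and -1.83, with edgeR adjusted p-values between 0.0565 and 0.287. Gbp2 was called in each of the 12 fits that left out 1 library, with adjusted p up to 0.0195. Gbp5 lost its call without A. faecalis replicate 3 (adjusted p = 0.0547) or S. aureus replicate 3 (0.0561), and Gbp3 and Gbp9 lost theirs without any single A. faecalis library or without S. aureus replicate 1 or 3 (adjusted p up to 0.0785 for Gbp3 and 0.102 for Gbp9). The number of members called was 1 without A. faecalis replicate 3 (1337 of 18379 over all genes) or S. aureus replicate 3 (1313 of 18412). It was 2 without A. faecalis replicate 1 (2112 of 18388), 2 (1423 of 18400) or 4 (1392 of 18391) or S. aureus replicate 1 (1956 of 18400). It was 7 without S. aureus replicate 4 (1510 of 18416). DESeq2's Wald test called 7 members, against 19.1% of all genes. At an adjusted p under 0.1 edgeR called 7, against 20% of all genes, and with the replicate number as a block 5, against 11.6%.

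**Figure D2:**
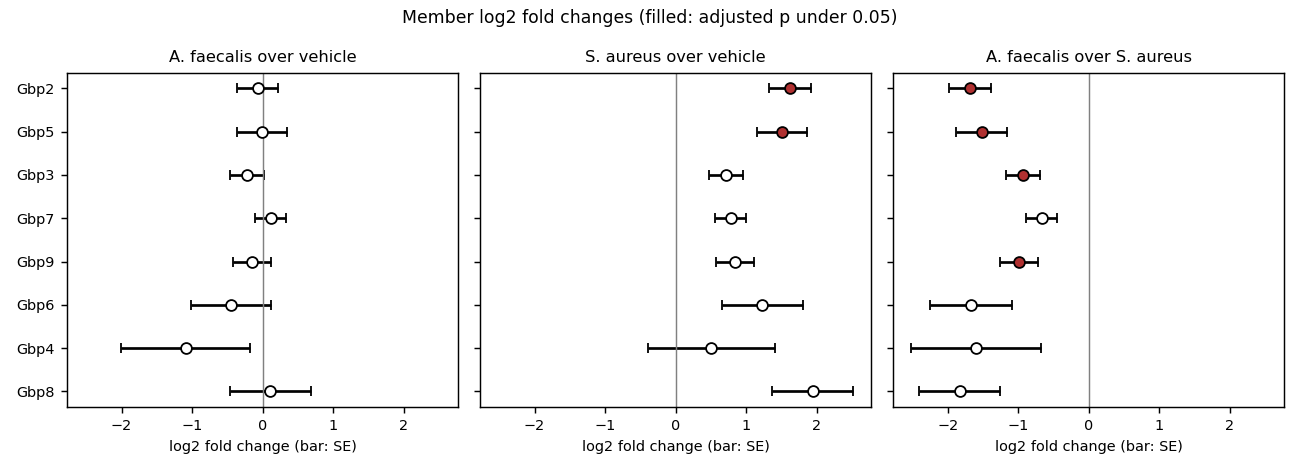
Log2 fold change of each member in the 3 comparisons, with bars of 1 SE from the edgeR fit of 12 libraries and filled points for an adjusted p under 0.05. All 8 members lie right of 0 for S. aureus over vehicle (0.51 to 1.95) and left of 0 for A. faecalis over S. aureus (-1.83 to -0.66), while A. faecalis over vehicle runs between -1.09 and 0.12.

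The ratio of members within a library does not depend on how libraries are scaled, and 3 ratios, picked after the member values were seen and therefore not tested, are given as a description. The CPM ratio of Gbp2 to Gbp7 was 0.841 ± 0.0689 in A. faecalis wounds, 1.66 ± 0.186 in S. aureus wounds and 0.946 ± 0.104 in vehicle wounds (SD, n = 4 each). Its values ran between 0.758 and 0.926 in A. faecalis wounds, between 1.44 and 1.87 in S. aureus wounds and between 0.848 and 1.08 in vehicle wounds, so S. aureus wounds were apart from both other groups.

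The ratio of Gbp2 to Gbp3 averaged 1.81 ± 0.243 in A. faecalis wounds, 2.95 ± 0.554 in S. aureus wounds and 1.66 ± 0.140 in vehicle wounds. That of Gbp5 to Gbp7 averaged 0.129 ± 0.0198 in A. faecalis wounds, 0.226 ± 0.0383 in S. aureus wounds and 0.139 ± 0.0265 in vehicle wounds. Gbp2 made up 27.3% to 30.3% of the summed CPM of the 8 members in A. faecalis wounds, 36.7% to 43.2% in S. aureus wounds and 27.1% to 30.2% in vehicle wounds.

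The members varied together from mouse to mouse. S. aureus replicate 1 was among the 3 highest of the 12 libraries in all 8 members and S. aureus replicate 3 in 7 of them, whereas S. aureus replicate 4 was the lowest of its group in 7. Vehicle replicate 4 was the lowest of all 12 libraries in each of the 8 members, vehicle replicate 3 was the highest of its group in 7, and A. faecalis replicate 2 was the highest of its group in 7.

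Across the 12 libraries, the 21 pairs of members without Gbp4 had Pearson correlations of log2 CPM between 0.813 and 0.988, with a median of 0.904. After the group means were subtracted these were between 0.644 and 0.989, with a median of 0.864. The 7 pairs with Gbp4 were lower, between 0.493 and 0.7004. These are descriptions over 12 libraries, in which all members share the same depth and scaling.

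Some other measures went with the same mice, though not alike in every group. S. aureus replicates 1 and 3, with the highest member levels, had the smallest totals of their group, 38.4 and 43.2 M, against 58.4 and 55.7 M in replicates 2 and 4. They also had the higher sums of T and natural killer cell markers, 99.6 and 79.7 CPM, against 57.5 and 47.5 CPM in replicates 2 and 4. In the vehicle group, replicate 4 had the highest sum of neutrophil markers, 9352 CPM, and the lowest of T and natural killer cell markers, 42.1 CPM. By contrast, A. faecalis replicate 2 and vehicle replicate 3, each highest of its group in 7 members, had the largest totals of their groups, 71.3 and 62.4 M. For T and natural killer cell markers, A. faecalis replicate 2 was highest of its group at 114 CPM. Vehicle replicate 3, at 56.0 CPM, was below vehicle replicate 2 at 82.7 CPM. The part of depth and of cell makeup in the spread between mice was not tested.

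**Figure D3:**
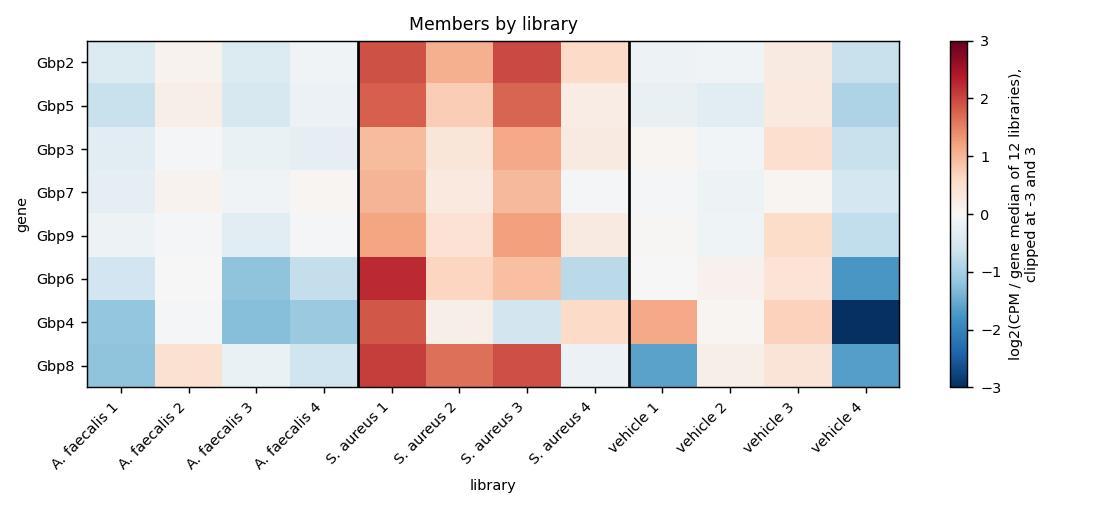
Log2 of the CPM of each member over that gene's median of the 12 libraries, with A. faecalis, S. aureus and vehicle libraries in blocks from left to right and colours clipped at -3 and 3. S. aureus replicates 1 and 3 are red in nearly every row, Gbp4 in replicate 3 excepted, and vehicle replicate 4 is the bluest column, with Gbp4 at a rounded count of 0.

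Members resemble each other in sequence, which limits how well short reads can be assigned. For each gene the 31-base words of its longest coding transcript in the GENCODE annotation of the GRCm38 build were compared with all transcripts of the other family genes. Gbp5 shared 0.0671% of its words, Gbp7 3.71%, Gbp2 4.91% and Gbp3 7.05%. The chromosome 5 members shared more, with 21.2% for Gbp9, 22.6% for Gbp4, 35.0% for Gbp8 and 83.5% for Gbp6.

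Gbp6 held 72.9% of its words in common with Gbp10, the member with no row, so values under the name Gbp6 are uncertain and may hold reads of Gbp10. The same holds to a lesser degree for Gbp4, Gbp8 and Gbp9. Gbp11, a transcribed pseudogene next to Gbp6 that shared 51.2% of its words, was measured at 1.13 ± 0.323 CPM in A. faecalis wounds, 1.78 ± 0.858 CPM in S. aureus wounds and 0.943 ± 0.598 CPM in vehicle wounds and was not called in any comparison (edgeR adjusted p from 0.254).

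When the counts of Gbp4, Gbp6, Gbp8, Gbp9 and Gbp11 were summed before the fit, an alternative added after the data were seen, the log2 fold change of the sum was -0.28 for A. faecalis over vehicle (edgeR adjusted p = 0.847), 0.92 for S. aureus over vehicle (0.119) and -1.20 for A. faecalis over S. aureus (0.0446). As single genes, Gbp9 alone of these was called, in the last of the 3 comparisons.

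**Figure D4:**
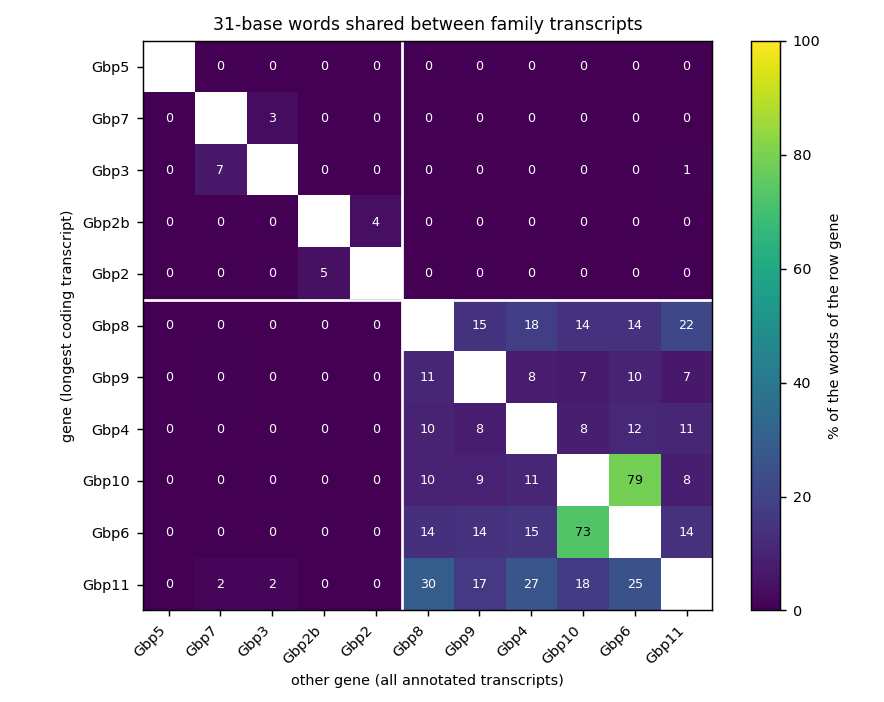
Percent of the 31-base words of the longest coding transcript of each row gene that also occur in the transcripts of the column gene, with chromosome 3 genes above and left of the white lines and chromosome 5 genes below and right. The block of chromosome 3 genes reaches 7% and no member shares over 1% of its words between chromosomes, while Gbp6 shares 73% with Gbp10.

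Promoters are shown because short motifs of interferon-responsive promoters are known. Only those of the chromosome 3 members are given, as no windows were at hand for the chromosome 5 members. RefSeq windows of 250 bases before to 50 bases after the start site (GRCm38.p6) were at hand for Gbp2, Gbp3, Gbp5 and Gbp7. A pair of motifs was searched, namely the gamma-activated site, TTCNNNGAA, which reads the same on both strands, and the interferon-stimulated response element, GAAA and GAAA with any 2 bases between them, searched on both strands. The 250 bases before the start follow, 5′ to 3′ on the plus strand, on which all 4 genes lie, with matches to either motif in capitals.
Gbp2, chr3:142620413-142620662: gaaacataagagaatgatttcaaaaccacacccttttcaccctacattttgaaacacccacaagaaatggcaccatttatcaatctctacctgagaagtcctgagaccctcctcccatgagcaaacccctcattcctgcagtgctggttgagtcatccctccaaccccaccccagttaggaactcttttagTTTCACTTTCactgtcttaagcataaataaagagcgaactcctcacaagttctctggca
Gbp3, chr3:142559794-142560043: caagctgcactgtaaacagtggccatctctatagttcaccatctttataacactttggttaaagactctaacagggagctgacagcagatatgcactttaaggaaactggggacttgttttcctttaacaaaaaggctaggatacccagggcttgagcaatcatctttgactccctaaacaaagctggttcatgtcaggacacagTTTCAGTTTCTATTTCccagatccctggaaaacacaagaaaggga
Gbp5, chr3:142496684-142496933: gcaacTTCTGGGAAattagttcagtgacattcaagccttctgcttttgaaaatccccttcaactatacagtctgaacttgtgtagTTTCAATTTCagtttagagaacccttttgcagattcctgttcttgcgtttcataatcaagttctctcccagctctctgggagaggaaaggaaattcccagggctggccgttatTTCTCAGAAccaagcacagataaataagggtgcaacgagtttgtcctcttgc
Gbp7, chr3:142530086-142530335: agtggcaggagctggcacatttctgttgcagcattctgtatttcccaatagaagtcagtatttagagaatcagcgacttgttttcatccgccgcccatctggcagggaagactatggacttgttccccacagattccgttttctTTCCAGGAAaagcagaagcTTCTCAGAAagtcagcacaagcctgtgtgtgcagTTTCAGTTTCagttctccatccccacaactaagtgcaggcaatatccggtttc

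All 4 genes held a response element on the minus strand, written here as read on the plus strand. In Gbp2 it was TTTCACTTTC at bases -59 to -50 from the start site, in Gbp7 TTTCAGTTTC at -53 to -44, and in Gbp5 TTTCAATTTC at -165 to -156. Gbp3 held a pair that overlap each other, TTTCAGTTTC at -45 to -36 and TTTCTATTTC at -39 to -30, while the window of a second Gbp3 start site held no match.

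The gamma-activated site occurred in Gbp5, as TTCTGGGAA at -245 to -237 and TTCTCAGAA at -52 to -44, and in Gbp7, as TTCCAGGAA at -106 to -98 and TTCTCAGAA at -87 to -79. It was not found in the windows of Gbp2 and Gbp3. Of all 32851 windows in the table, 3.44% held the response element, 8.30% the gamma-activated site and 0.454% both. Gbp2 and Gbp5, the members called higher in S. aureus wounds, thus differed in the motifs found, and a match is a description of these letters only.

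By a fixed measure of likeness, a family score was formed for each library as the mean over the 8 members of log2 CPM centred on the gene, and each of the other 18210 tested genes was correlated with it over the 12 libraries. The 10 genes with the highest Pearson correlation included Wars, Iigp1, Pomp, Gm5970, Tgtp1, Gm12250, Gm4951, Irgm1 and Uba7, and the 10 had r between 0.934 and 0.948. Spearman's rho was 0.776 for Wars, 0.951 for Iigp1 and 0.972 for Irgm1.

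The value of Gbp4 in vehicle replicate 4 weighs on that score. With Gbp4 left out, which was added after the data were seen, 6 of those 10 genes were again among the top 10, and the highest values of r included those of Igtp (0.967), Ifi47 (0.965), Gm12250 (0.964) and Irgm1 (0.962). After subtraction of the group means the 10 highest included H2-T3, Ncr1, Gbp11, Ly86, Wars, Phf11a, Parp11 and Tbx21, and the 10 had r between 0.932 and 0.964, of which 4 were again in the top 10 without Gbp4. All these values share library, depth and scaling with the score.

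The ligand and its signalling genes were examined next. Ifng, which encodes interferon-gamma, was barely detected, with rounded counts of 5, 8, 2 and 4 in A. faecalis wounds, 13, 33, 28 and 15 in S. aureus wounds and 7, 8, 0 and 1 in vehicle wounds. Each S. aureus library was above each library of the other groups. The log2 fold change was 2.70 for S. aureus over vehicle (SE 0.680, edgeR adjusted p = 0.038) and -2.52 for A. faecalis over S. aureus (SE 0.666, edgeR adjusted p = 0.0295). Ifng passed the low-count filter only through its S. aureus libraries, as no library of the other groups reached the minimum count of 10. The calls are therefore not independent of the high S. aureus counts. At these counts the calls were weak. Over vehicle it was lost when any of 8 libraries was left out (vehicle replicate 1 or 4, A. faecalis replicate 2, 3 or 4, or S. aureus replicate 2, 3 or 4, with adjusted p up to 0.112). Against A. faecalis it was lost without any single A. faecalis library or without S. aureus replicate 2 or 3 (adjusted p up to 0.0895).

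Irf1, the transcription factor induced early by interferon-gamma, averaged 70.9 ± 13.9 CPM in A. faecalis wounds, 180 ± 47.6 CPM in S. aureus wounds and 69.0 ± 7.29 CPM in vehicle wounds (SD, n = 4 each). Its lowest S. aureus library, at 120 CPM, was above the highest library of the other groups, at 81.8 CPM. The log2 fold change was 1.38 for S. aureus over vehicle (SE 0.197, edgeR adjusted p = 0.00776) and -1.35 for A. faecalis over S. aureus (SE 0.197, edgeR adjusted p = 0.0022), and both calls stood in each fit that left out 1 library. Socs1, the feedback inhibitor of the pathway, had a log2 fold change of 1.09 for S. aureus over vehicle (SE 0.292, edgeR adjusted p = 0.0469), and that call was lost without any single S. aureus library, without vehicle replicate 1, 3 or 4 or without A. faecalis replicate 3 (adjusted p up to 0.130).

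Of the 22 interferon-gamma signalling genes, 4 were called higher in S. aureus wounds over vehicle (Ifng, Irf1 and Socs1 among them) and none lower, and none was called in A. faecalis wounds over vehicle. In A. faecalis wounds over S. aureus wounds 9 were called lower and 1, Il18, higher, against 7.62% and 5.06% of all genes. The 4 calls over vehicle stand against 3.87% of all genes called higher there. Ifng, which passed the low-count filter only through its S. aureus libraries, is counted in both the 4 and the 9. To that extent these counts are not independent of its high S. aureus counts. The receptor genes Ifngr1 and Ifngr2 and the kinase genes Jak1 and Jak2 were not called in any comparison. Over the 22 genes the log2 fold changes had a median of 0.31 for S. aureus over vehicle and -0.23 for A. faecalis over S. aureus. Leaving out single libraries gave 1 call over vehicle without S. aureus replicate 2 or 3, and 2 without vehicle replicate 1, A. faecalis replicate 3 or S. aureus replicate 4. The 10 calls of A. faecalis over S. aureus became 4 without S. aureus replicate 3, 5 without A. faecalis replicate 1, 2 or 3 or S. aureus replicate 2, and 6 without S. aureus replicate 1.

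**Figure D5:**
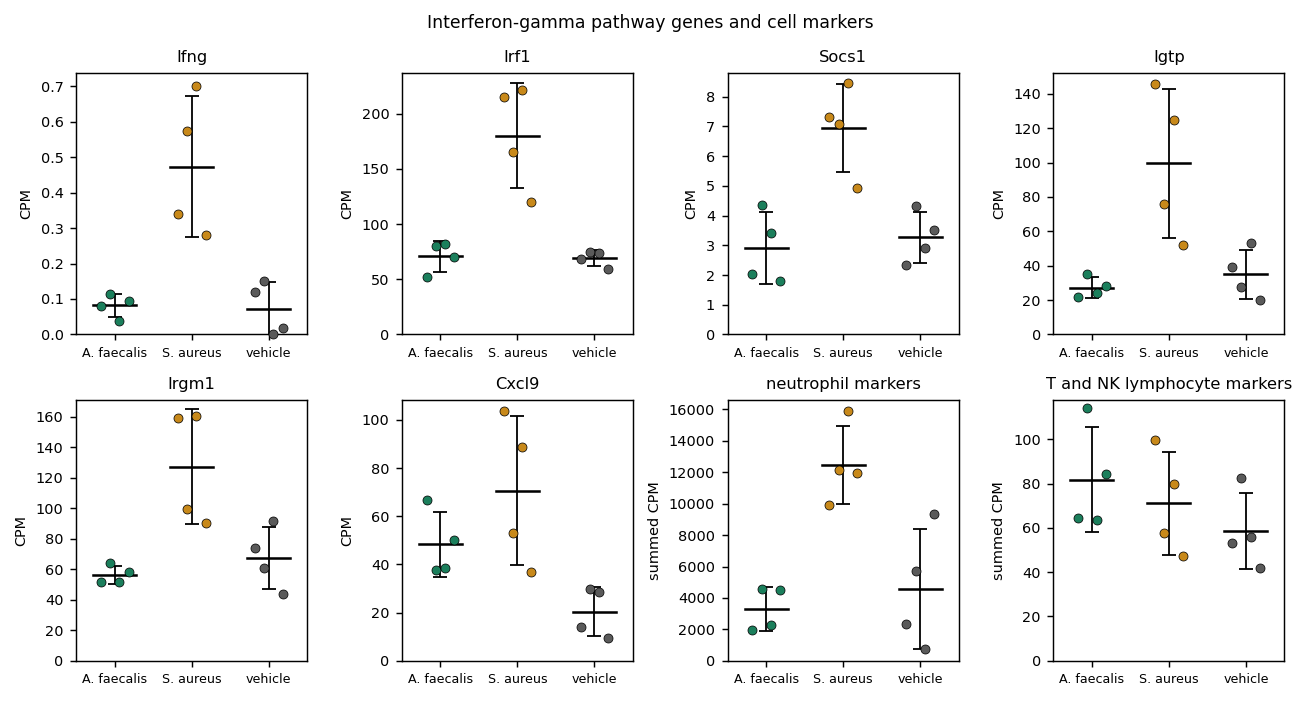
CPM of 6 interferon-gamma pathway genes and summed CPM of neutrophil and of T and natural killer cell markers in every library, with A. faecalis, S. aureus and vehicle wounds from left to right, the thick line at the mean and the bar at 1 SD (n = 4 each). Irf1 in S. aureus wounds lies above both other groups, as do the neutrophil markers at 9930 to 15871 CPM, while the T and natural killer cell markers overlap in all 3 groups.

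Other interferon-inducible GTPases, including the immunity-related GTPases that act with guanylate-binding proteins on pathogen vacuoles in the mouse, made up a list of 18 genes. For S. aureus over vehicle 2 of them, Igtp and Irgm1, were called higher, against 3.87% of all genes. There 16 of 18 log2 fold changes were positive and the median was 0.89. For A. faecalis over S. aureus 12 of 18 were called lower, against 7.62% of all genes, and none higher, with a median of -1.21. For A. faecalis over vehicle none was called, and all 18 values were negative with a median of -0.36, against -0.03 over all genes tested.

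Igtp, which encodes Irgm3, a regulator of that family, averaged 27.3 ± 5.95 CPM in A. faecalis wounds, 99.6 ± 43.2 CPM in S. aureus wounds and 35.0 ± 14.4 CPM in vehicle wounds. Its log2 fold change was 1.51 for S. aureus over vehicle (SE 0.349, edgeR adjusted p = 0.0298) and -1.87 for A. faecalis over S. aureus (SE 0.353, edgeR adjusted p = 0.0065). Over vehicle the call was lost without vehicle replicate 1 or 2 or S. aureus replicate 2 or 3 (adjusted p up to 0.091), and that of Irgm1 (log2 fold change 0.91, SE 0.236, edgeR adjusted p = 0.0416) without any of 9 libraries (up to 0.123). The list's count for S. aureus over vehicle was 2 without A. faecalis replicate 1 and 0 without vehicle replicate 1 or 2 or S. aureus replicate 2 or 3. It was 9 without vehicle replicate 3, 4 without S. aureus replicate 4 and 1 without any of the others. Over all genes these fits called 260 to 1750 genes. DESeq2 called 12 of the list, against 15.8% of all genes. For A. faecalis over S. aureus edgeR's count of 12 became 4 without A. faecalis replicate 3 or S. aureus replicate 3. It became 6 without A. faecalis replicate 4 and 7 without A. faecalis replicate 1. Over all genes the fits of this comparison with 1 library left out called 1313 to 3457 genes.

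Among 30 interferon-gamma target genes, 6 were called higher in S. aureus wounds over vehicle and none lower, among them the chemokine gene Cxcl9, the protease inhibitor gene Serpina3g, the peptide transporter gene Tap1, and Irf1 and Socs1, which also stand in the signalling list. Serpina3g averaged 18.8 ± 3.48 CPM in A. faecalis wounds, 50.2 ± 11.9 CPM in S. aureus wounds and 14.7 ± 4.15 CPM in vehicle wounds, a log2 fold change of 1.77 for S. aureus over vehicle (SE 0.235, edgeR adjusted p = 0.0065). For A. faecalis over S. aureus 8 of the 30 were called lower and 2 higher, against 7.62% and 5.06% of all genes. The 6 calls over vehicle stand against 3.87% of all genes called higher there. Without S. aureus replicate 3 the 6 calls over vehicle became 2, and the 10 calls of A. faecalis over S. aureus became 5, or 6 without A. faecalis replicate 1 or 3.

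Among 32 type I interferon-stimulated genes, 5 were called higher in S. aureus wounds over vehicle (Eif2ak2, Oas2, Oas3, Oasl2 and Trim30a) and none lower, and 11 were called lower in A. faecalis wounds over S. aureus wounds. Oas3, one of the enzymes that sense double-stranded RNA, averaged 32.8 ± 8.68 CPM in A. faecalis wounds, 141 ± 43.6 CPM in S. aureus wounds and 56.8 ± 14.2 CPM in vehicle wounds. Its log2 fold change was 1.31 for S. aureus over vehicle (SE 0.254, edgeR adjusted p = 0.0167) and -2.10 for A. faecalis over S. aureus (SE 0.261, edgeR adjusted p = 0.001), and both calls stood in each fit that left out 1 library. No gene of this list was called for A. faecalis over vehicle. The 5 calls over vehicle stand against 3.87% of all genes called higher there, and the 11 of A. faecalis over S. aureus against 7.62% called lower. The list's 5 calls over vehicle became 3 without vehicle replicate 2 or 3 or S. aureus replicate 3 or 4, and the 11 of A. faecalis over S. aureus became 6 without A. faecalis replicate 3 and 7 without S. aureus replicate 3.

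Inflammasome and pyroptosis genes, through which guanylate-binding proteins act on infected cells, made up a list of 15. None was called in S. aureus wounds over vehicle, a count that the 6.84% of all genes called there does not set apart, and 3 (Il18, Ninj1 and Nlrc4) were called higher in A. faecalis wounds over S. aureus wounds, against 5.06% of all genes. Casp4, which encodes caspase-11, the sensor of cytosolic lipopolysaccharide, averaged 61.6 ± 15.2 CPM in A. faecalis wounds, 68.3 ± 12.3 CPM in S. aureus wounds and 53.5 ± 25.1 CPM in vehicle wounds, with edgeR adjusted p-values between 0.4996 and 0.883. Ninj1, needed for membrane rupture in pyroptosis, averaged 237 ± 50.7 CPM in A. faecalis wounds and 136 ± 15.4 CPM in S. aureus wounds, a log2 fold change of 0.80 (SE 0.173, edgeR adjusted p = 0.0122). The count of 3 ran from 1, without A. faecalis replicate 2 or S. aureus replicate 1, 2 or 4, to 7 without vehicle replicate 3. None of the 8 genes listed for protein prenylation and its later steps, not all of which act on Gbp2 and Gbp5, was called in any comparison.

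Cell markers moved with the same contrast. The 14 neutrophil markers summed to 1936 to 4549 CPM in A. faecalis wounds, 9930 to 15871 CPM in S. aureus wounds and 770 to 9352 CPM in vehicle wounds, none of them at 0 in a whole group. For S. aureus over vehicle 2 of the 14 were called higher, against 3.87% of all genes, and for A. faecalis over S. aureus 7 were called lower, against 7.62%. With 1 library left out these 2 counts ran from 0, without vehicle replicate 1 or S. aureus replicate 2, 3 or 4, to 9, without vehicle replicate 4, and from 2, without A. faecalis replicate 3, to 8. As a description over the 12 libraries, which share depth and scaling between the scores, the neutrophil score had a Pearson correlation of 0.30 and a Spearman correlation of 0.48 with the family score, and a Pearson correlation of -0.53 after the group means were subtracted. Over the 12 libraries the other 11 marker lists had Pearson correlations between -0.56 for erythroid markers and 0.54 for endothelium. Fibroblasts and dendritic cells had 0.48 each and T and natural killer cells 0.44, also above neutrophils. After the group means were subtracted the other 11 marker lists ran between -0.34 for erythroid markers and 0.77 for markers of T and natural killer cells. Fibroblasts then had 0.71 and dendritic cells 0.63. Endothelium markers summed to 1065 to 1536 CPM in A. faecalis wounds, 1535 to 1701 CPM in S. aureus wounds and 984 to 1437 CPM in vehicle wounds. Of these 10 markers 2 were called higher in S. aureus wounds over vehicle and none lower, against 3.87% of all genes called higher. That count ran from 0 to 3 with 1 library left out. The part of neutrophil or endothelial cell number in the member differences was not tested.

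The 22 markers of T and natural killer cells summed to 63.6 to 114 CPM in A. faecalis wounds, 47.5 to 99.6 CPM in S. aureus wounds and 42.1 to 82.7 CPM in vehicle wounds, overlapping in all groups. None was called in S. aureus wounds over vehicle, and 3 (Cd4, Eomes and Ncr1) were called higher in A. faecalis wounds over S. aureus wounds, against 5.06% of all genes. Of 16 monocyte and macrophage markers, 8 were called higher in A. faecalis wounds over S. aureus wounds, against 5.06% of all genes. In S. aureus wounds over vehicle 2 were called lower, against 2.97% of all genes. The 8 calls became 5 without A. faecalis replicate 2, 3 or 4 or S. aureus replicate 2 or 4. The 2 calls became 0 without S. aureus replicate 2, 3 or 4, 1 without vehicle replicate 1 or 2 and 6 without vehicle replicate 3. Their sums were 7944 to 11435 CPM in A. faecalis wounds, 6417 to 7958 CPM in S. aureus wounds and 5566 to 9976 CPM in vehicle wounds, and their part in the member differences was likewise not tested.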

How the data were processed

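The deposited table holds estimated counts per gene for 12 libraries, which were made, per the submitters' processing notes, with kallisto 0.48.0 among the tools named (FastQC 0.12.1, R 4.1.3, DESeq2 1.34.0, build GRCm39), with no role or setting given. Per the labels' protocols, libraries were stranded and ribosomal RNA was depleted. Each library was read as 1 mouse. Counts were rounded and filtered with filterByExpr (minimum count 10, minimum total 15), and 3 group means were fitted with edgeR 4.0.16 (TMM, robust quasi-likelihood) in R 4.3.3. DESeq2 1.42.0 and limma 3.58.1 were alternatives, with other scalings, filters, thresholds, a replicate block and each library left out. Rows with no gene name held up to 0.0151% of counts. Replicates differed beyond sampling noise (chi-square per degree of freedom 28.0 to 460). Every member is named, with up to 4 called genes of each list and its key genes; a few genes that this rule or the likeness ranking would name are not reported here. Members and lists were chosen with earlier results of these data known. The fit was tested on simulated data. Promoters are RefSeq's.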

Additional observations from a re-analysis of the deposited data

Results flagged for a closer look

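Gbp4 in A. faecalis replicate 2 stood far from the other 3 libraries of its group, with 5.19 CPM against 2.21 to 2.47 CPM. Of 24 sets of 4 libraries examined in this way, 1 had such a gap, and chance gives about 1 in 20. A. faecalis replicate 2 also had the highest level of its group in 7 of the 8 members and the largest total of the 12 libraries, 71.3 M counts. Gbp4 was not called in any comparison.

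The responses to the 2 bacteria, each taken over the same vehicle wounds, differed in 4 members by the direct test of A. faecalis over S. aureus. These are the calls already given above, and 12.7% of all genes were called in that comparison. The log2 differences were -1.68 for Gbp2, -0.94 for Gbp3, -1.52 for Gbp5 and -0.99 for Gbp9. Gbp2 was lower in 4 of 4 A. faecalis wounds than in any S. aureus wound, as were Gbp3, Gbp5 and Gbp9. Of all genes, 11.8% were lower in this way.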

How the results depend on the processing

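For A. faecalis over vehicle, 0 members were called in every setting run. The count for S. aureus over vehicle, 2 as reported, was 6 with DESeq2's Wald test or at an adjusted p under 0.1, 0 with only these groups fitted and 4 with the replicate number as a block. The count for A. faecalis over S. aureus, 4 as reported, was 7 with DESeq2's Wald test or at an adjusted p under 0.1 and 5 with the block. The replicate numbers gave no sign of pairing: same-numbered libraries had correlations between -0.21 and 0.18, 3 of 12 over 0.1. Libraries with different numbers had correlations between -0.27 and 0.30. Such a check cannot show that the samples were unpaired. Leaving out 1 library gave 0 to 0, 1 to 4 and 1 to 7 calls in the 3 comparisons in that order. Over all genes the same fits called 2 to 10, 260 to 1750 and 1313 to 3457 genes. Log2 fold changes that turned sign were all near 0 or belonged to Gbp4. For A. faecalis over vehicle these were Gbp4 with limma-voom (0.90), Gbp5 with limma-voom (0.00486), under a filter on mean CPM (0.00331) and with the block (0.0910), and Gbp2 with the block (0.00642). With 1 library left out, A. faecalis over vehicle ran from -0.20 to 0.10 for Gbp2, -0.38 to 0.000897 for Gbp3, -0.19 to 0.23 for Gbp5, -0.25 to 0.52 for Gbp8 and -0.32 to 0.11 for Gbp9. In S. aureus over vehicle Gbp4 ran from -0.11 to 0.98, and the log2 ratio of Gbp5 to Gbp7 for A. faecalis over vehicle ran from -0.21 to 0.0101. The cause of these changes was not tested. Of 516 member values under another setting, 448 kept direction and side of the threshold. Gbp4 and Gbp8, with rounded counts down to 0 and 15, are limited by depth, as is Ifng.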

Other observations

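Cxcl9 and Il18 were the 2 genes named here that lay higher in each A. faecalis wound than in each vehicle wound. Cxcl9, the chemokine that draws T cells, was measured at 66.6, 37.9, 38.4 and 50.3 CPM in A. faecalis wounds, against 13.8, 29.8, 28.4 and 9.59 CPM in vehicle wounds. Its log2 fold change of 1.24 (SE 0.400) did not pass the test (edgeR adjusted p = 0.54), and Gbp2 in the same A. faecalis wounds lay inside the vehicle range. Il18, which encodes a cytokine that promotes interferon-gamma release, was measured at 8.47, 11.7, 6.87 and 7.87 CPM in A. faecalis wounds, against 6.15, 4.15, 3.31 and 4.00 CPM in vehicle wounds, a log2 fold change of 0.99 (SE 0.269, edgeR adjusted p = 0.44). Of all genes, 1.49% were higher in each A. faecalis wound in this way. Over the alternatives the adjusted p ran from 0.119 to 0.891 for Cxcl9 and from 0.0506 to 0.891 for Il18. Both genes were picked after their values were seen.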
